A study of Arabidopsis thaliana with 44 samples.

Results

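Inflorescences of the Arabidopsis thaliana floral mutant ap3-6 were compared with wild-type inflorescences on Affymetrix ATH1 microarrays. The comparison used 4 microarrays, A and B of ap3-6 and A and B of wild type, out of 21 Affymetrix microarrays and 44 samples in all, and it covered every one of the 22746 probe sets that were not controls. Both RNA samples came from immature buds of mixed stages, without separation of organs. For each genotype A and B were technical replicates, hybridized with the same RNA, so the tests set a difference against technical error and not against variation between plants. The same set of microarrays held the inflorescences of the mutants agamous, ap1-10 and sup/ap1 (6 microarrays), and callus, silique, root, untreated leaf and leaf collected 4 h and 52 h after salicylic acid treatment (11 microarrays). Untreated leaves and roots were 21 days old, and no age was given for the treated leaves. Siliques were young, collected within days of fertilization. The accession of the plants and the age of the inflorescences were not given in the sources used here.

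AP3 encodes a MADS-domain transcription factor of the B class. It works as a heterodimer with PISTILLATA (PI), together with SEPALLATA proteins, to give petal identity in the second whorl of the flower and stamen identity in the third. In ap3 mutants sepals form where petals belong and carpels where stamens belong, so an ap3-6 inflorescence lacks anthers, tapetum and pollen as well as petals, and has more sepal and carpel tissue. The other mutants differ in which organs they keep. Flowers of agamous lack stamens and carpels and make extra petals, ap1 flowers lose petals but keep stamens, and loss of SUPERMAN function adds stamens at the expense of carpels. In such bulk samples, fewer cells of a type and less RNA per cell cannot be told apart.

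No table pairing ATH1 probe sets with genes was used here, so probe sets are described by their levels, and the AP3 transcript itself was not read on the Affymetrix microarrays. Whole-array measures did not set the ap3-6 microarrays apart. The median signal was 224 and 225 on the ap3-6 microarrays and 226 and 232 on the wild-type microarrays. The ratio of the 3′ to the 5′ actin control, a measure of RNA integrity, was 1.31 and 1.41 in ap3-6 and 1.40 and 1.49 in wild type. The 5S rRNA control was brighter in ap3-6, at 615 and 399, than in wild type, at 183 and 56.2, and its part in the results was not tested. On the log2 scale, Pearson's correlation across the probe sets was 0.957 between the ap3-6 microarrays and 0.944 between the wild-type microarrays, and 0.886 to 0.907 between a microarray of each.

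Of the 22746 probe sets, 1773 were lower in ap3-6 than in wild type and 1473 were higher, by limma with Benjamini-Hochberg adjusted p under 0.05. These were 7.79% and 6.48% of the probe sets tested, 14.3% together, while the median log2 difference over all probe sets was 0.0028. At least 2-fold lower were 1249 (5.49%) and at least 2-fold higher 517 (2.27%). A strong change is used below for a called probe set that differed at least 2-fold and had a signal of at least 200 on both microarrays of the higher group. There were 735 strong falls and 375 strong rises, 3.23% and 1.65% of the probe sets. The call depended on single microarrays, since 1805 probe sets were called without wild-type A and 2020 without ap3-6 A. Without wild-type A, without ap3-6 A and without ap3-6 B the called rises numbered 701, 779 and 894, and without wild-type A the called falls numbered 1104.

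The falls were much larger than the rises. The median strong fall was −2.33 on the log2 scale and the lowest was −12.19, whereas the median strong rise was 1.30 and the highest was 4.75. Of the 735 strong falls, 412 were at least 4-fold, 299 at least 8-fold, 112 at least 64-fold and 49 at least 256-fold as measured. Signals near background make the largest of these uncertain. With each ap3-6 signal held at or above the brightest bacterial control of its microarray (described below), an alternative chosen after seeing the data, 412 were at least 4-fold, 292 at least 8-fold, 62 at least 64-fold and 9 at least 256-fold, and the lowest was −9.09 on the log2 scale. Of the 375 strong rises, 55 were at least 4-fold, 15 at least 8-fold and 4 at least 16-fold. The strong falls together held 1.16% and 1.18% of the summed signal on the ap3-6 microarrays and 6.64% and 6.65% on the wild-type microarrays. The strong rises held 4.23% and 4.17% in ap3-6 and 1.39% and 1.73% in wild type. These shares describe sets that were chosen on the same microarrays. The probe sets nearest the 2-fold line were at −1.001 and −0.998 for falls, and the highest rise outside it was at 0.999, so the strong classes are a range and not a separate kind of change.

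**Figure D1:**
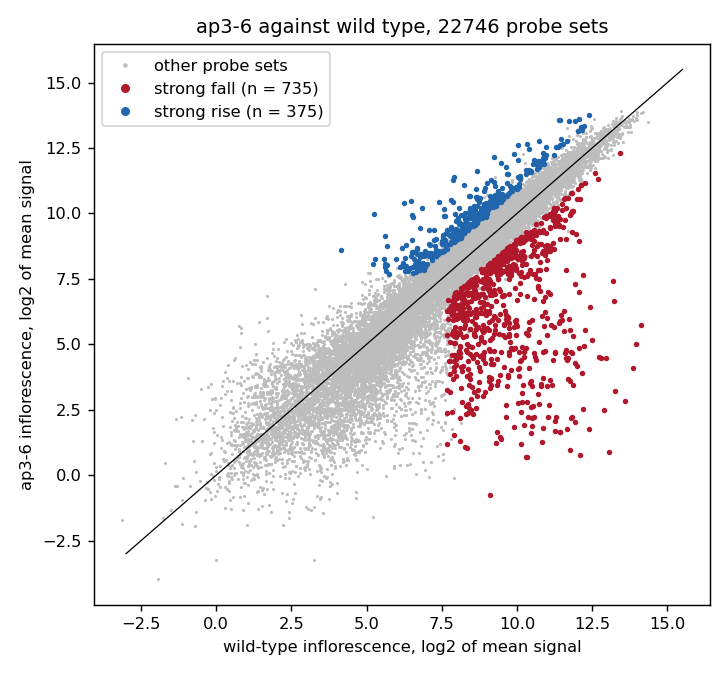
Mean signal of each of the 22746 probe sets in ap3-6 inflorescence (y axis, log2) against wild-type inflorescence (x axis, log2), with 735 strong falls, 375 strong rises and all other probe sets as points and the line of equal signal. The strong falls reach far below the line, to −12.19 on the log2 scale, while the strong rises stay within 4.75 of it.

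Because the classes rest on all 4 microarrays, one pair of microarrays was also used to choose probe sets and the other to measure them. As A and B held the same RNA, this speaks to technical repeatability only and not to variation between plants. On the A microarrays 956 probe sets were at least 2-fold lower in ap3-6 and had a wild-type signal of at least 200. On the B microarrays 98.7% of them were also lower in ap3-6 and 76.3% were at least 2-fold lower, and the median log2 difference was −1.91 on A and −1.90 on B. The 784 probe sets that rose at least 2-fold on A were higher on B in 96.6% of cases, and at least 2-fold higher in 37.1%, with median log2 differences of 1.28 on A and 0.78 on B. Chosen on B and measured on A, 87.9% of 841 falls were at least 2-fold lower, with medians of −2.34 and −2.18, and 65.8% of 447 rises were at least 2-fold higher, with medians of 1.27 and 1.24. The falls kept nearly their size either way, and the rises kept it in one direction of the check and not in the other.

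The largest falls were at or near background in ap3-6 and very bright in wild-type inflorescence. Probe set 252063_at had a signal of 13.3 and 0.96 on the ap3-6 microarrays and of 14030 and 10370 on the wild-type microarrays, a log2 difference of −11.72 ± 0.96 (SE, limma adjusted p = 4.36e-07). Both ap3-6 values lay below the brightest of the 27 bacterial control probe sets on the same microarray, so the fall is given as at least 493-fold. The log2 difference was −8.29 with 32 added to every signal. Probe set 250610_at had 14.7 and 19.1 in ap3-6 and 18140 and 11560 in wild type, with a log2 difference of −9.76 ± 0.97 (SE, adjusted p = 3.33e-06). Its value on ap3-6 A lay below the brightest bacterial control of that microarray, at 36.95. With 32 added to every signal its log2 difference was −8.215. For both probe sets the microarrays of the 2 groups were far from overlapping.

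The same probe sets separated the other inflorescences. The signal of 252063_at was 161 and 193 in agamous, 9896 and 8628 in ap1-10 and 11010 and 11040 in sup/ap1. It was at most 65.2 on every microarray of silique, leaf, treated leaf, root and callus. The signal of 250610_at was 536 and 514 in agamous, 14530 and 10710 in ap1-10 and 12350 and 12040 in sup/ap1. Both were thus at their wild-type level in mutants that make stamens, low in agamous, and lower still in ap3-6. Against agamous 252063_at was at least 7.18-fold lower in ap3-6, with the background held as above (limma adjusted p = 0.00147 for the measured values). Probe set 250610_at differed from agamous by −4.97 ± 0.97 on the log2 scale (adjusted p = 0.00425), as measured and without a bound for its ap3-6 A value. Both comparisons reuse the ap3-6 microarrays on which these probe sets were chosen.

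The 15 probe sets with the largest falls, ranked on log2 signal with 32 added, all had this pattern. Their signals ranged from 0.96 to 54.3 on the ap3-6 microarrays and from 3280 to 21760 on the wild-type microarrays. In agamous they ranged from 41.1 to 708, in ap1-10 from 2820 to 17492 and in sup/ap1 from 4380 to 16366. The level in ap3-6 was called lower than in agamous for 15 of 15 and lower than the mean of the other mutants for 15 of 15. Over all probe sets 3.57% and 5.72% were lower in these comparisons. Both reuse the ap3-6 microarrays on which the 15 were chosen, so these counts are a description. At background on both ap3-6 microarrays were 9 of the 15, and for those the level was at least 2.36-fold to at least 16.9-fold lower than in agamous. The agamous level was in turn called lower than the mean of ap1-10 and sup/ap1 for 15 of 15, a comparison that used none of the microarrays on which the 15 were chosen. Their highest signal was 79.1 in leaf, 74.5 in root and 336 in callus. One of the 15 reached 1233 in silique, where the median of the 15 was 34.6.

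**Figure D2:**
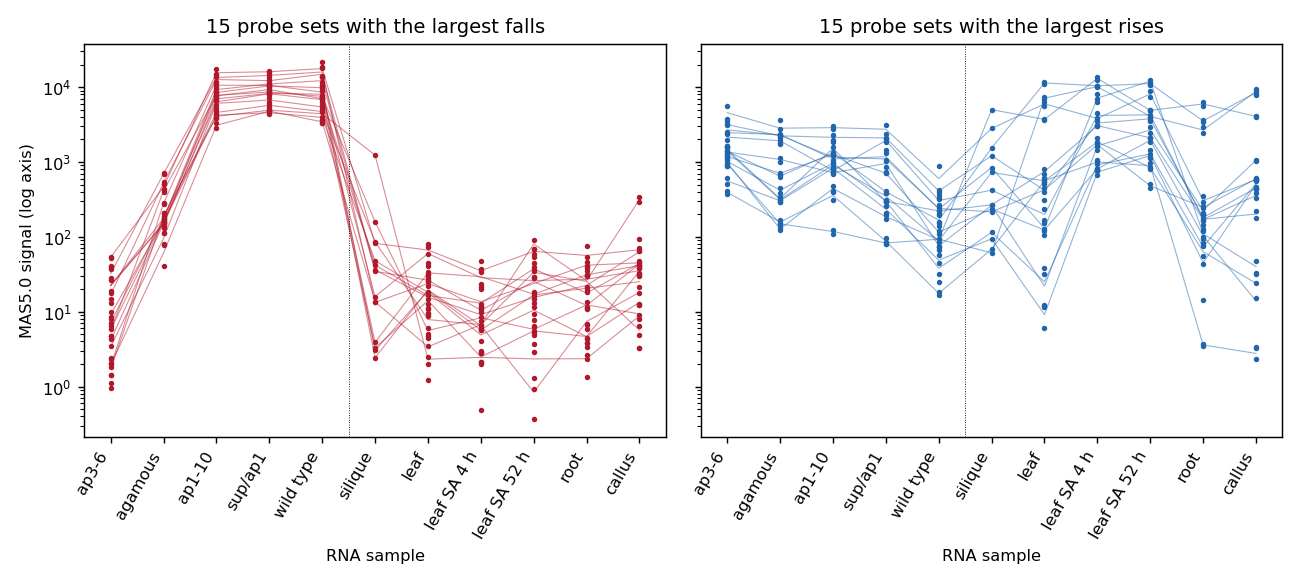
MAS5.0 signal (y axis, log scale) of the 15 probe sets with the largest falls (left) and the 15 with the largest rises (right) in 11 RNA samples (x axis), with inflorescences left of the dotted line; points are microarrays and lines join sample means. The falls lie between 0.96 and 54.3 in ap3-6 and between 3280 and 21760 in wild type, and the rises between 375 and 5550 in ap3-6 and between 16.9 and 878 in wild type.

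Some of the strong falls were at the level of the bacterial controls in ap3-6, in about the same share as all probe sets. Those 27 control probe sets match no plant RNA, and the brightest of them read 37.0 and 16.2 on the ap3-6 microarrays and 40.3 and 32.2 on the wild-type microarrays. On both ap3-6 microarrays 113 of the 735 strong falls (15.4%) were at or below that signal. None were in wild type, where a strong fall had to be at 200 or more. Counted over all probe sets, 15.3% were at or below it in ap3-6 and 16.7% in wild type. The 113 fell by at least 8.30-fold to at least 493-fold, with a median of at least 31.8-fold, and their mean signal in wild type ranged from 203 to 12201. At background on both microarrays were 30 of the 113 in agamous, 1 in ap1-10 and 0 in sup/ap1. In silique 61 of the 113 were at background, and 47 were at background in all 5 of leaf, both treated leaves, root and callus. Over all probe sets 17.7% were at background in agamous, 17.5% in ap1-10, 16.3% in sup/ap1 and 20.1% in silique. The share of all probe sets at background in all 5 was not counted.

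The strong falls of at least 8-fold were the sharpest class. Their median signal was 23.2 and 21.0 on the ap3-6 microarrays, 52.2 and 50.0 in agamous, 930 and 924 in ap1-10, 1321 and 1367 in sup/ap1 and 861 and 918 in wild type. Taken per probe set, ap3-6 kept a median of 2.51% of the wild-type signal, agamous 5.50%, ap1-10 101% and sup/ap1 132%. Outside the flower the median was 50.3 in silique, 36.3 and 18.1 in leaf, 26.8 and 18.8 in root and 34.4 and 31.0 in callus. In leaf 54.2% of these 299 probe sets were at background, where 20.5% of all probe sets were. The share at background was 46.2% in root, 38.5% in callus, 34.8% in silique and 13.0% in agamous. Over all probe sets it was 16.1% in root, 16.8% in callus, 20.1% in silique and 17.7% in agamous. In agamous these probe sets were thus at background less often than all probe sets.

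How the strong falls behaved in the other mutants was read from the difference between agamous and the mean of ap1-10 and sup/ap1, which used no ap3-6 and no wild-type microarray. Agamous flowers lack stamens and keep petals, whereas ap1-10 and sup/ap1 flowers keep stamens. Of the 735 strong falls, 452 (61.5%) were lower in agamous and 92 (12.5%) were higher, and 191 were called in neither direction. Over all 22746 probe sets 7.43% were lower in agamous and 5.09% higher, and over the 11443 with a signal of at least 200 on both wild-type microarrays 7.94% were lower and 7.87% higher. The share lower in agamous grew with the size of the fall in ap3-6. It was 28.2% of 216 falls below 2.8-fold, 48.6% of 107 falls of 2.8 to 4-fold, 59.3% of 113 falls of 4 to 8-fold, 81.9% of 72 falls of 8 to 16-fold, 89.6% of 115 falls of 16 to 64-fold and 98.2% of 112 larger falls. The share higher in agamous ran the other way, at 24.5% of the falls below 2.8-fold and 0.893% of those of 64-fold or more.

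The 452 strong falls that were also lower in agamous were chosen as low in ap3-6 against wild type and low in agamous against ap1-10 and sup/ap1, so their levels in the inflorescences are a description. Their median signal was 53.7 and 44.8 in ap3-6, 75.6 and 75.3 in agamous, 725 and 736 in ap1-10, 1023 and 1043 in sup/ap1, and 701 and 746 in wild type. Per probe set, ap3-6 kept a median of 7.60% of the wild-type signal and agamous 9.93%. The single silique microarray had a median signal of 102, and leaf, root and callus microarrays had medians of 41.6 to 66.2. Between ap3-6 and agamous 87 of the 452 were called lower in ap3-6 and 12 higher.

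The 92 strong falls that were higher in agamous were chosen in the same way, and their levels are a description too. Their median signal was 299 and 279 in ap3-6, 978 and 926 in agamous, 339 and 339 in ap1-10, 458 and 454 in sup/ap1 and 865 and 837 in wild type. The choice fixed that agamous was above the mean of ap1-10 and sup/ap1, but not how agamous compared with wild type, where 5 of the 92 were called lower and 5 higher in agamous. Ap3-6 was called lower than agamous for 87 of the 92, lower than ap1-10 for 15 and higher than ap1-10 for 8. The falls of this group were smaller, with a median log2 difference from wild type of −1.36, against −3.75 for the 452 above. Their transcripts were also present elsewhere, with a median signal of 627 in silique, 368 and 363 in leaf and 241 and 246 in root. That agamous flowers make extra petals and ap1 and ap3 flowers lose them is background, and which organ expressed these transcripts was not measured.

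**Figure D3:**
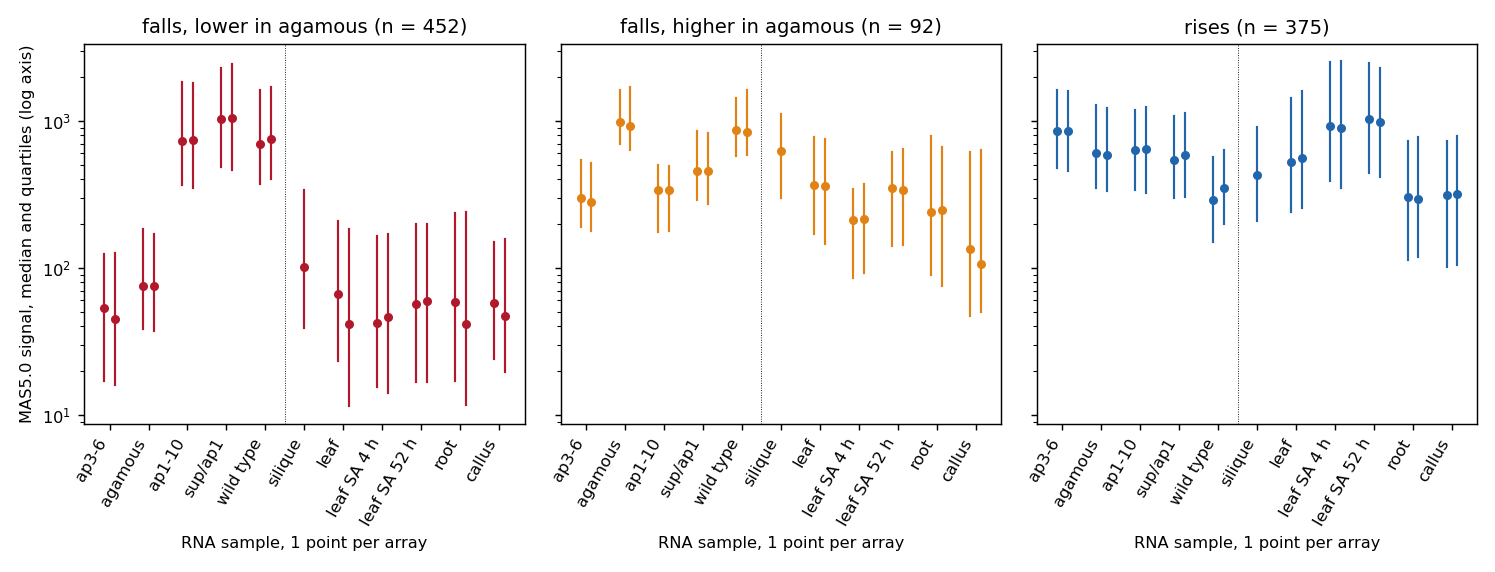
Median (points) and quartiles (bars) of MAS5.0 signal (y axis, log scale) on each microarray of 11 RNA samples (x axis), for the 452 strong falls lower in agamous, the 92 strong falls higher in agamous and the 375 strong rises. The first group is low in ap3-6 and agamous only among the inflorescences, with a median of 53.7 and 44.8 in ap3-6, and the second is low in ap3-6 and ap1-10 and at 978 and 926 in agamous.

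Set directly against the mean of the other 3 mutants, ap3-6 was lower for 1302 probe sets and higher for 687, 5.72% and 3.02% of those tested. The number called fell to 1051 without ap3-6 A and to 1221 without ap3-6 B. Both contrasts share the ap3-6 microarrays, so the overlap is given as a description. Of the 1773 falls against wild type 1057 (59.6%) were also lower than in the other mutants, and of the 1473 rises 364 (24.7%) were also higher. Against agamous alone 812 probe sets were lower in ap3-6 and 639 higher, 3.57% and 2.81% of the probe sets, and the number called lay between 705 and 994 with 1 microarray of either sample left out. Against ap1-10 ap3-6 was lower for 1077 (4.73%) and higher for 538 (2.37%), and against sup/ap1 lower for 1656 (7.28%) and higher for 893 (3.93%). The wild-type microarrays were also the reference of the other mutants, where 1376 probe sets were lower and 1048 higher in agamous, 822 lower and 813 higher in ap1-10, and 482 lower and 587 higher in sup/ap1.

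Ap3-6 had the lowest level of all 5 inflorescences, called against each of the other 4, for 199 probe sets (0.875%), of which 143 were strong falls. Their median log2 difference was −1.96 against agamous, −2.35 against ap1-10, −2.84 against sup/ap1 and −2.78 against wild type. It had the highest level in the same sense for 68 probe sets (0.299%), of which 30 were strong rises. Their median differences were 1.29, 0.94, 1.13 and 1.27 in the same order.

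By the ranking on log2 signal with 32 added, among probe sets at 200 or more in ap3-6, the 2 largest rises were low in wild-type inflorescence and high in each mutant. Probe set 250971_at had a signal of 1152 and 881 in ap3-6 and of 31.6 and 44.4 in wild type, a log2 difference of 4.75 ± 0.41 (SE, adjusted p = 8.28e-07). It read 454 and 388 in agamous, 1074 and 850 in ap1-10 and 303 and 299 in sup/ap1. In leaf it read 11.4 and 38.8 untreated, 804 and 1032 at 4 h after salicylic acid and 1122 and 1442 at 52 h. Callus read 592 and 433, root 92.3 and 54.9 and silique 115. Neither ap3-6 microarray overlapped with the wild-type ones, but the difference from agamous was not called (log2 1.26 ± 0.41, adjusted p = 0.0907).

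Probe set 264211_at had a signal of 1191 and 1526 in ap3-6 and of 66.4 and 85.6 in wild type, a log2 difference of 4.16 ± 0.32 (SE, adjusted p = 1.66e-07). Its level in the other mutants was 1014 and 1145 in agamous, 697 and 743 in ap1-10 and 1051 and 854 in sup/ap1. In leaf it read 11.9 and 32.04 untreated, 1429 and 1853 at 4 h and 2464 and 2891 at 52 h. Callus read 1036 and 1069, root 245.5 and 205.5 and silique 262. This probe set too was low in wild-type inflorescence and untreated leaf, and high in all 4 mutant inflorescences, in treated leaf and in callus. Against the mean of the other mutants it was not called in ap3-6 (log2 0.58, adjusted p = 0.226).

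Among the 15 largest rises, signals ranged from 375 to 5550 in ap3-6 and from 16.9 to 878 in wild type. Ap3-6 was called higher than agamous for 7 of them and higher than the mean of the other mutants for 8, so that about as many did not set ap3-6 apart from other mutants as did. Over all probe sets 2.81% and 3.02% were higher, and both comparisons reuse the ap3-6 microarrays of the choice. Leaf at 4 h after salicylic acid was called higher than untreated leaf for 13 of the 15, and leaf at 52 h for 8. The shares over all probe sets were 13.4% and 10.5%, and over those at 200 or more on both ap3-6 microarrays 17.4% and 14.7%. The count at 4 h was not repeated without the microarray there whose actin 3′ to 5′ ratio was 116. Salicylic acid is the hormone that induces defense genes against biotrophic pathogens, and neither leaf comparison used an inflorescence microarray.

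The same held for the strong rises as a class. At 52 h after salicylic acid 152 of the 375 (40.5%) were higher and 42 (11.2%) lower than in untreated leaf. Among the 11403 probe sets with a signal of at least 200 on both ap3-6 microarrays 14.7% were higher and 17.9% lower, and over all probe sets 10.5% were higher. At 4 h 41.6% of the strong rises were higher, against 17.4% of the bright probe sets and 13.4% of all. One of the microarrays at 4 h had an actin 3′ to 5′ ratio of 116, far from the 1.21 to 2.34 of the other 20, and without it the share was 32.3%. On that microarray at 4 h the 3′ to 5′ ratio was 1.85 for the GAPDH control and 1.91 for the ubiquitin control. The other microarrays had at most 1.24 and 2.2. For comparison, 15.4% of the strong falls were higher at 52 h. The number of strong rises was 594 without wild-type B, and the share higher at 52 h stayed between 36.0% and 44.4% with any of the 4 microarrays left out.

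The strong rises that were higher at 52 h and those that were not had similar median levels in ap3-6 and wild type. The 152 had a median signal of 854 and 882 in ap3-6, 630 and 633 in agamous, 566 and 607 in ap1-10, 549 and 601 in sup/ap1 and 282 and 332 in wild type. In leaf their median was 392 and 409 untreated, 1066 and 993 at 4 h and 1588 and 1537 at 52 h. The other 223, of which 42 were lower at 52 h, had a median of 850 and 820 in ap3-6 and 296 and 356 in wild type, and of 734 and 813 in untreated leaf, 759 and 780 at 4 h and 644 and 634 at 52 h. The split used the untreated leaf microarrays, so the difference between the 2 groups in that sample is partly set by it. Over all 375, 50.7% were called higher in leaf than in root and 26.7% lower. Of the bright probe sets 28.9% were higher, and over all probe sets 19.8% were higher and 27.5% lower. The median level of the 375 strong rises relative to wild type was 241% in ap3-6, 187% in agamous, 190% in ap1-10 and 165% in sup/ap1, and these values share the wild-type microarrays.

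Named genes were read here for the wild-type sample only, on Agilent 22 K microarrays hybridized with the same wild-type inflorescence RNA in both channels. No ap3-6 RNA was on that platform. An MPSS library of ap3-6 inflorescence, with transcripts counted as sequence tags, was among the samples but was not analysed here. Levels below are log2 of processed intensity relative to the 75th percentile of the microarray. Both inflorescence microarrays were higher than all 6 leaf, root and callus microarrays for 3144 of 21500 gene probes, or 14.6%. Here and in the lists below, leaf and root intensities were extracted on another day than those of inflorescence and callus. For leaf and root, tissue and day cannot be told apart. Among 11 floral organ identity genes this held for 9. AP3 itself was at 2.102 and 2.325 in inflorescence and at most −1.93 in leaf, root and callus. PI, its partner, was at 3.52 and 3.24, but its probe also read 2.65 on the brightest of the other microarrays. SEP3, an E-class cofactor of organ identity, was at 2.67 and 2.71 against at most −3.19.

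Anther and tapetum transcripts, of organs that ap3-6 flowers lack, were prominent in the wild-type RNA. Of 33 anther and tapetum genes on the microarray, 27 were higher in inflorescence than on all leaf, root and callus microarrays, and 24 were at least 2-fold higher, as were 3.66% of all gene probes. Not higher were DYT1, TDF1, MYB103, QRT1, A9 and GRP14, the last at −0.81 and −0.17 in inflorescence and up to 1.75 elsewhere. GRP17, a glycine-rich oleosin of the pollen coat, was at 4.98 and 4.60 in inflorescence and at most −3.54 elsewhere. GRP19, of the same family, was at 4.56 and 4.37 and at most −4.39 elsewhere. ATA27, a tapetum-specific β-glucosidase family gene, was at 3.67 and 3.56 against at most −4.51. MS2, a fatty acyl reductase needed for the outer pollen wall, was at 1.66 and 1.98 against at most −3.34, and AMS, a bHLH regulator of the tapetum, at −0.10 and −0.12 against at most −4.85. These stand for the kind of transcript the wild-type sample held, and were not matched to the probe sets that fell.

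The remaining lists are given by their counts, with no test between lists. For pollen and male gamete genes 14 of 25 were higher on both inflorescence microarrays, among them VGD1, a pectin methylesterase of the pollen tube, at 2.36 and 2.55 against at most −3.35. For petal growth genes 3 of 8 were higher, MYB21, MYB24 and MYB57, which act in late petal and stamen growth under jasmonate. Carpel, ovule and fruit genes were higher for 8 of 17, meiosis genes for 1 of 7, and photosynthesis genes for 0 of 32. Salicylic acid response markers were higher for 0 of 3, and PR1, the usual marker of the response, was at −3.31 and −4.06 in inflorescence. The counts were 2 of 11 regulators of organ identity and meristem, 6 of 14 jasmonate genes, 10 of 15 flavonoid genes, 7 of 15 cell cycle genes, 0 of 9 circadian clock genes and 0 of 4 seed storage markers.

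**Figure D4:**
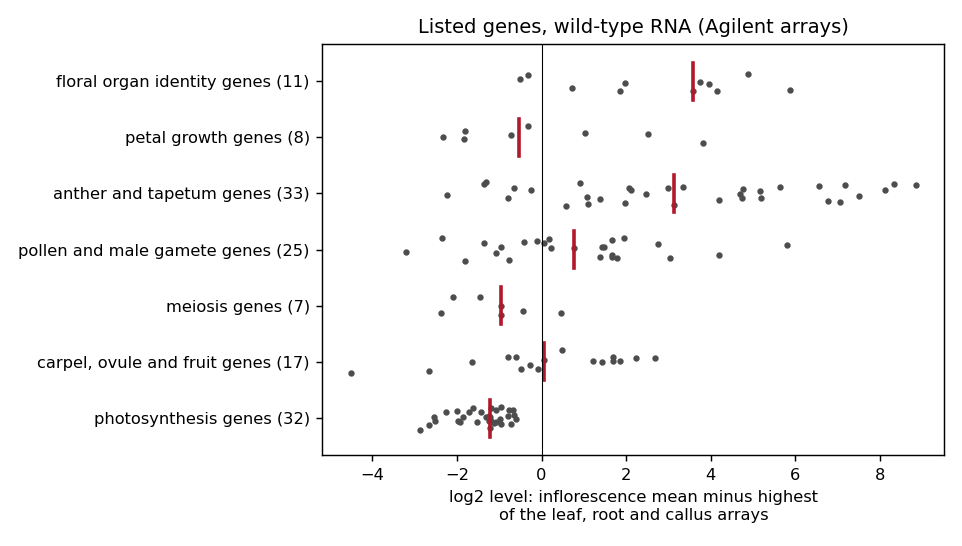
Log2 level in wild-type inflorescence (mean of 2 Agilent microarrays) minus the highest of 6 leaf, root and callus microarrays (x axis) for the genes of 7 lists (y axis, number of genes in brackets); points are genes and red bars are medians. Most of the 33 anther and tapetum genes lie to the right of 0, with GRP19 at 8.86, and all 32 photosynthesis genes to the left.

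On 2 Agilent microarrays RNA of silique, the young fruit within days of fertilization, was set directly against the wild-type inflorescence RNA. Whether petals or stamens were still attached to the siliques was not given in the sources used here. At least 2-fold lower on both were 29 of 33 anther and tapetum genes, against 8.19% of the 18781 gene probes measurable in inflorescence, and the median log2 ratio of the list was −4.74. For 18 of the 33 the silique signal was not well above background, so that median rests partly on values near background. The log2 ratio of PI was −5.49 and −5.87 and that of AP3 −1.21 and −1.23. QRT3, a polygalacturonase that separates the pollen tetrad, was at −2.94 and −2.996. At least 2-fold higher on both were 5 of 17 carpel, ovule and fruit genes, against 6.36% of all gene probes, with log2 ratios of 2.63 and 2.62 for SHP1, 2.36 and 2.43 for SHP2, 2.30 and 2.30 for STK and 3.56 and 3.44 for ABS, which act in valve margins, ovules and the seed coat. At least 2-fold lower were 6 of the 17, beside 8.19% of all gene probes. They were CRC, HEC2, STY2, ETT, NTT and ANT, the last at −3.37 and −3.58. The median log2 ratio of the list was −0.04. These ratios are not a measurement of ap3-6.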

How the data were processed

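The authors deposited the MAS5 signal of each probe set, an intensity that the software summarizes from its probes and scales over each whole microarray. Probe annotation and genome build were not given in the sources used here. For Agilent microarrays, the authors deposited Feature Extraction output with the processed intensity of each channel and the log10 ratio of red (silique) over green (inflorescence). That ratio was turned into log2 here, and was limited by the software to 6.64 in size.

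Log2 signal of all 21 Affymetrix microarrays was fitted with lmFit and eBayes (trend) of limma 3.58.1 in R 4.3.3, with 1 mean per RNA sample, no filter on low signal and Benjamini-Hochberg adjustment over 22746 probe sets, called at 0.05. The 64 control probe sets were left out of the fit. A bound for a probe set at background set the mean log2 signal of the higher group against the brighter of the probe set and the brightest bacterial control on each microarray of the lower group. The fit was tested on simulated data with 200 changed probe sets of 22746 in ap3-6 minus wild-type inflorescence. All 200 had a mean wild-type signal of at least 200, and the noise was drawn from the variances of the same fit. The fit recovered 63.0% of log2 changes of 1, 95.0% of 2 and 99.0% of 4. Probe sets with a lower wild-type signal were not changed, so recovery for those was not tested. The number of microarrays, 2 per sample, limits the precision.

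Named probe sets were chosen among the called ones, with microarrays of both groups not overlapping and a signal of at least 200 on both microarrays of the higher group. They were ranked by the mean difference of log2(signal + 32), 15 in each direction, of which 2 in each direction are named because no table of probe set genes was used. Gene lists were read on the Agilent microarrays from the gene names in the files. A gene with several probes was read from the brightest. No test was run over a list, and sequences and promoters were not used. MPSS libraries and root/leaf Agilent microarrays were not analysed here. Feature Extraction was run on another day for the leaf and root than for the callus and inflorescence microarrays, so differences between these cannot be told apart from the day.

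Members, lists and classes were chosen with earlier results of these data known. Alternatives were a pseudocount of 32, filters on low signal, quantile normalization, no trend, fewer microarrays, a replicate block and leaving out each microarray. Figures were drawn with Python 3.11.15 and matplotlib 3.10.9.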

Additional observations from a re-analysis of the deposited data

How the results depend on the processing

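Both groups had 1 RNA sample, so no alternative speaks to variation between plants, and levels near background limit the size of the largest falls. The 4 named probe sets kept their direction and their call under every alternative that tested them, with adjusted p of at most 0.000366 apart from settings that left out a microarray. With only the brighter probe sets, those over the median of the mean log2 signal, 929 were lower and 1394 higher, strong falls numbered 345, calls against the other mutants 1145, and 42.0% of strong falls were lower in agamous than in ap1-10 and sup/ap1 and 21.2% higher, beside 61.5% and 12.5% without the filter. That filter tests 11373 probe sets and drops those high in few samples. With only the 4 microarrays compared, 1966 were called, 670 of them higher. Leaving out 1 microarray gave 1805 to 3109 calls against wild type (1104 to 1520 lower and 701 to 1589 higher), 673 to 770 strong falls, 270 to 594 strong rises, 1051 to 1884 calls against the other mutants and 705 to 994 against agamous, and the lone microarray was assumed to vary like the others. Over the same settings 51.4% to 65.7% of strong falls were lower in agamous and 8.89% to 12.9% higher. With the replicate number as a block 3768 were called, but the numbers did not mark shared material, and the deviations of B from A in ap3-6 and wild type correlated at 0.123 across probe sets. No list or promoter alternative on the Affymetrix microarrays could be run without probe set genes.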
